A study of Mus musculus with 6 samples.

Results

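The 10 genes described here are the peroxisome proliferator-activated receptors (PPARs) and a core of the fatty acid oxidation machinery that they are known to control. They are Ppara, Pparg, Ppard, Cpt1a, Cpt2, Acadl, Acadm, Hadha, Angptl4 and Pdk4, taken by name from the 49315 genes counted, and they were divided into those whose level followed albumin mRNA (Alb), a hepatocyte transcript, from library to library and those whose level did not. None of the 10 passed the test between genotypes. The levels of 7 of them rose and fell with Alb across the 6 libraries, with Ppara over the widest range, whereas Ppard, Cpt1a and Pdk4 did not meet the limit set for following Alb.

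Liver F4/80+ cells were collected with magnetic beads, after collagenase digestion and removal of the hepatocyte pellet, from mice fed a diet with 60% fat for 16 weeks, starting at 8 to 12 weeks of age on a C57BL/6N background. The 3 WT mice were littermates with the Lpcat3 fl/fl / LysM +/+ genotype, and the 3 Lpcat3KOMac mice carried Lpcat3 fl/fl / LysM Cre/+, so that both groups had floxed Lpcat3, the gene of a phospholipid-remodelling acyltransferase, and only Lpcat3KOMac mice had Cre. Cre was driven by the LysM (Lyz2) locus, which is active in myeloid cells in general and not in Kupffer cells alone, and the deletion was partial. Each library came from 1 mouse, was prepared from poly-A RNA, and is named here WT 1 to 3 or KOMac 1 to 3 after its label.

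PPARs are ligand-activated nuclear receptors that bind DNA as heterodimers with retinoid X receptors, and fatty acids and their derivatives are among their ligands. Ppara is the main form in hepatocytes, where it drives fatty acid oxidation and ketone body synthesis during fasting, Pparg is the adipocyte form and is also expressed in tissue macrophages, and Ppard is expressed in most tissues. Long-chain fatty acids enter mitochondria through the carnitine shuttle, in which Cpt1a and Cpt2 act on the outer and the inner membrane, and are then shortened by acyl-CoA dehydrogenases such as Acadl and Acadm and by the trifunctional protein, whose alpha subunit is Hadha. Angptl4, a secreted inhibitor of lipoprotein lipase, and Pdk4, a kinase that turns off the pyruvate dehydrogenase complex, are widely used as readouts of PPAR activity.

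The promoter windows of 4 members are shown because these genes stood at different places on the scale of how closely a level followed Alb: Ppara and Acadm followed it, Cpt1a stood just outside the limit, and Ppard did not follow it. Each window runs from 250 bases before to 50 bases after the RefSeq start site in GRCm38.p6, written 5′ to 3′ on the strand of the gene. Capitals mark AGGTCA, the receptor half-site of a PPAR response element, found on either strand. The windows lie at chr15:85735526-85735825 on the plus strand for Ppara, at chr17:28232504-28232803 on the plus strand for Ppard, at chr19:3323051-3323350 on the plus strand for Cpt1a and at chr3:153944594-153944893 on the minus strand for Acadm.
Ppara: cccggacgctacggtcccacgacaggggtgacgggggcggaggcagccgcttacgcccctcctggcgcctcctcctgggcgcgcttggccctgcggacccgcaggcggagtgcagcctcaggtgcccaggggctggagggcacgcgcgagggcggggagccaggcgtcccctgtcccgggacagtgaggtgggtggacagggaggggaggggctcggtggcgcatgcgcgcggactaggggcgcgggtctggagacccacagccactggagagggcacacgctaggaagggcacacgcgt
Ppard: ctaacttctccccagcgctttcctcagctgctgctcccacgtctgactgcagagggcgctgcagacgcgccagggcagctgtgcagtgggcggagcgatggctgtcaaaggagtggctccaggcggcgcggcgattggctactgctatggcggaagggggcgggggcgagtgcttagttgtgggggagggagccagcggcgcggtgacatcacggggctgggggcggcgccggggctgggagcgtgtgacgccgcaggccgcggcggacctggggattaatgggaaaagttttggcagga
Cpt1a: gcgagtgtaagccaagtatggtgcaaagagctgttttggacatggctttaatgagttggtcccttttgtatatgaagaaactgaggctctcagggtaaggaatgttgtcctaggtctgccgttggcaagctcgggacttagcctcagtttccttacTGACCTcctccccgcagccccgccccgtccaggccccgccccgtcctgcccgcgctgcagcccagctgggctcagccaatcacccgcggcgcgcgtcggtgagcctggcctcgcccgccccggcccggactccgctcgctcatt
Acadm: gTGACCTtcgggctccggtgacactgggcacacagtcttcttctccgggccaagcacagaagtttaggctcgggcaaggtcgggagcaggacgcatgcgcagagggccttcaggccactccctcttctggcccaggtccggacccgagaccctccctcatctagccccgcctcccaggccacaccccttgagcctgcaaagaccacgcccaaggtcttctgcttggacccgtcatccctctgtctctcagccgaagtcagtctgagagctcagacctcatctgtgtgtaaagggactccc

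RefSeq windows matched 9 of the 10 members, with 3 start sites for Pparg and 1 for each of the others, 11 windows in all. The half-site AGGTCA was found in 4 of the 11 windows (36.4%), those of Acadm and Cpt1a and the first and second of Pparg, against 16.3% of all 32851 mouse promoter windows. The 3 windows of Pparg belong to 1 gene, and whether this small count differs from that share was not tested. The direct repeat AGGTCANAGGTCA, searched on both strands and itself made of 2 such half-sites, was not found in a member window with 2 or fewer mismatches, which 3.86% of all windows allowed. Acadm came closest with 3 mismatches, a distance within which 24.6% of all windows had a match. The letters of Ppara and Ppard held no half-site in these windows.

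The 6 libraries held 44954224 to 71392812 counts, and levels are given as CPM, counts scaled to a common library size with the trimmed mean of M-values (TMM). Lpcat3 was 85.0, 66.2 and 61.2 CPM in WT mice and 19.5, 33.3 and 19.4 CPM in Lpcat3KOMac mice, with no overlap (log2 fold change -1.56, SE 0.26, unadjusted p = 0.0012 in edgeR's quasi-likelihood test), as the labels say. After adjustment over all genes, Lpcat3 was not called in that edgeR test, but it was in DESeq2 (adjusted p = 0.0029). Lyz2, whose locus carries Cre, was also lower in every Lpcat3KOMac mouse (log2 fold change -1.42, SE 0.30). The 6 Kupffer cell markers, Clec4f, Vsig4, Timd4, Cd5l, Adgre1 (F4/80) and Marco, were abundant in all libraries, with summed levels of 24938 to 34015 CPM in WT and 18864 to 27224 CPM in Lpcat3KOMac mice. The 5 hepatocyte markers, Alb, Apoa1, Ahsg, Fgb and Apoh, were present as well, at summed levels of 1689 to 18436 CPM in WT and 4167 to 11998 CPM in Lpcat3KOMac mice, although hepatocytes had been pelleted away. The 4 adipocyte markers, Adipoq, Plin1, Lep and Retn, had at most 3 counts in any library, and Lep was at 0 in all 6.

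Alb was 13054, 1205 and 1319 CPM in WT 1, WT 2 and WT 3, and 3131, 9289 and 3138 CPM in KOMac 1, KOMac 2 and KOMac 3. The genotypes were thus interleaved: the library with the most Alb and the 2 with the least were WT, and the genotype means were alike at 5192 ± 6808 and 5186 ± 3553 CPM (SD, n = 3). WT 1 and KOMac 2 stood apart from the other 4 libraries, and the genotype fits and correlations with Alb of the members are given with and without them. In bulk RNA, a higher number of hepatocytes and more RNA per hepatocyte cannot be told apart.

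Per kilobase of exon (RPKM, mean over the 6 libraries), Cpt1a was the most abundant member at 83.2, followed by Acadl at 53.1, Acadm at 30.9, Hadha at 24.7, Cpt2 at 18.1, Angptl4 at 10.8, Pparg at 10.2, Ppara at 7.46, Ppard at 5.57 and Pdk4 at 2.51. The shuttle and dehydrogenase genes therefore stood above the receptors. Acadm and Hadha, which are neighbours in this order, each exceeded the other in 3 of 6 libraries. Angptl4 exceeded Pparg in 2 of 6. Cpt1a exceeded Acadl, Acadl exceeded Acadm, Hadha exceeded Cpt2, Cpt2 exceeded Angptl4 and Ppard exceeded Pdk4 in all 6 libraries.

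Among the receptors, the order per length depended on the library. Ppara ranged from 0.753 RPKM in WT 3 to 20.3 RPKM in WT 1, and it exceeded Pparg and Ppard in 2 of 6 libraries, those with the most Alb. Pparg ranged from 7.17 to 11.97 RPKM and exceeded Ppard, at 4.79 to 6.07 RPKM, in all 6. In the 4 libraries with less Alb, Pparg was thus the most abundant receptor mRNA.

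Ppara (chr15:85734983-85802819, plus strand), the hepatocyte receptor, was 77.9, 9.46 and 2.89 CPM in WT 1 to 3 and 19.4, 49.3 and 12.7 CPM in KOMac 1 to 3. The 2 libraries richest in Alb had the most Ppara, and the range between libraries was 27.0-fold, the widest of the 10 genes, with WT mice at both ends. WT 2 and WT 3 differed 3.28-fold in Ppara (474 and 132 counts) at nearly equal Alb. The mean was 30.1 ± 41.5 CPM in WT and 27.2 ± 19.5 CPM in Lpcat3KOMac mice (SD, n = 3), a log2 fold change of -0.15 with a 95% interval from -3.23 to 2.94.

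Pparg (chr6:115360951-115490399, plus strand) was 35.3, 21.2 and 25.9 CPM in WT mice and 34.7, 32.9 and 31.5 CPM in Lpcat3KOMac mice. All 3 Lpcat3KOMac mice exceeded WT 2 and WT 3 but not WT 1, so the groups overlapped (log2 fold change 0.27, SE 0.20, exact two-sided permutation p = 0.4). Its range between libraries was 1.67-fold. Ppard (chr17:28232754-28301469, plus strand) was the steadiest member, at 22.2, 26.9 and 25.5 CPM in WT and 28.1, 24.6 and 27.6 CPM in Lpcat3KOMac mice, a 1.27-fold range, with its lowest level in WT 1, the library with the most Alb. Its log2 fold change of 0.11 had a 95% interval from -0.17 to 0.38, which excludes a doubling or a halving in Lpcat3KOMac mice.

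**Figure D1:**
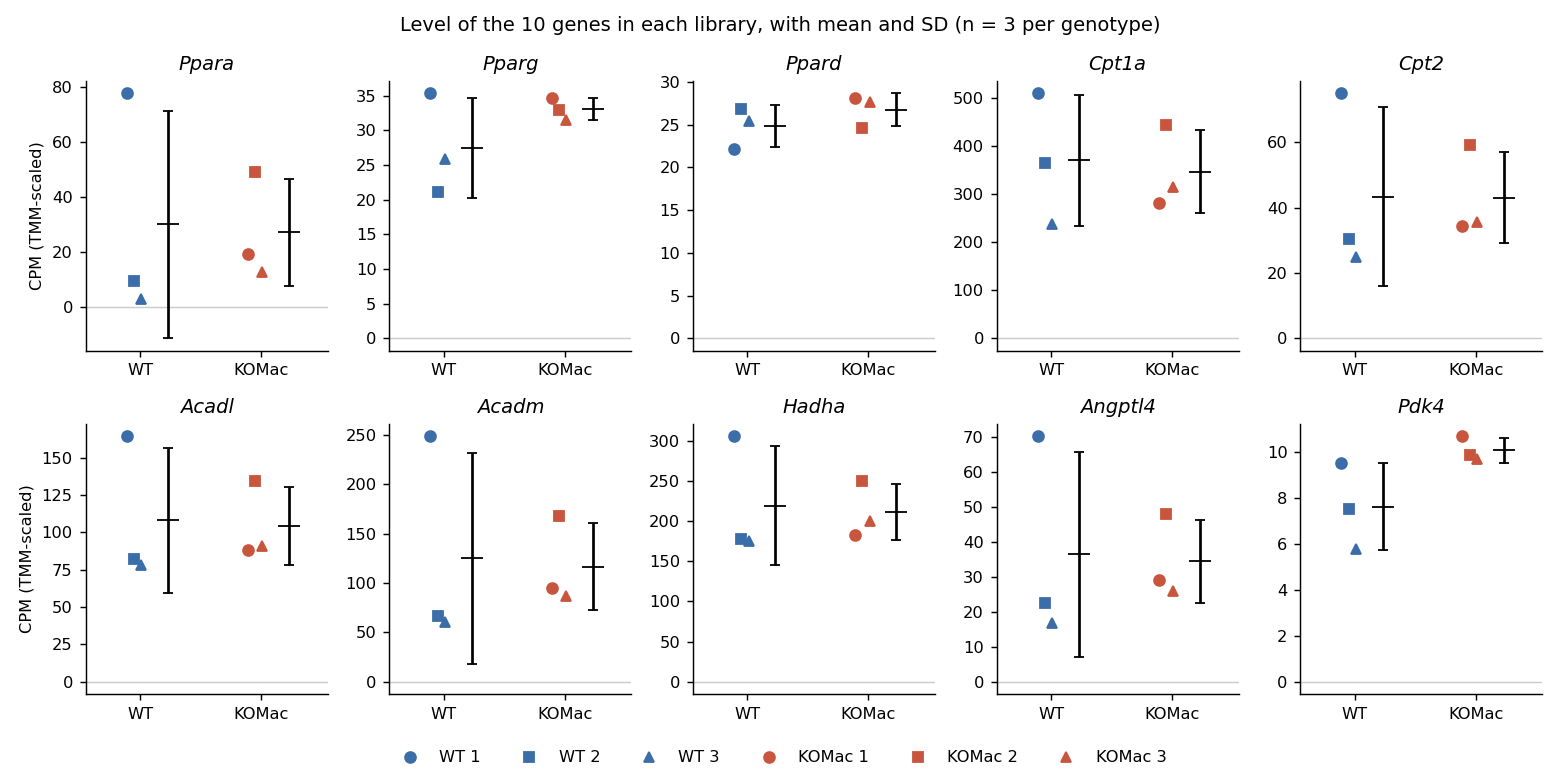
CPM (TMM-scaled, linear axis) of each of the 10 genes in the 3 WT (blue) and 3 Lpcat3KOMac (KOMac, red) libraries, with the genotype mean and SD as black bars and marker shapes for mouse 1 to 3. WT 1 and KOMac 2 are the 2 highest libraries in 7 panels, and Pdk4 is the panel in which every KOMac mouse lies above every WT mouse.

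Cpt1a (chr19:3323301-3385732, plus strand), the rate-controlling enzyme of mitochondrial fatty acid entry, was 509, 363 and 238 CPM in WT and 280, 444 and 314 CPM in Lpcat3KOMac mice. WT 1 and KOMac 2 were again highest, but WT 2 came next although it had the least Alb. Cpt2 (chr4:107903981-107923610, minus strand), its inner-membrane partner, was 75.0, 30.3 and 25.0 CPM in WT and 34.3, 59.1 and 35.6 CPM in Lpcat3KOMac mice, a 3.00-fold range. The genotype means of Cpt2 were 43.4 ± 27.5 and 43.0 ± 14.0 CPM (SD, n = 3).

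Of the dehydrogenases, Acadl (chr1:66830839-66863277, minus strand), for long-chain acyl-CoA, was 164, 82.1 and 78.3 CPM in WT and 88.1, 135 and 90.8 CPM in Lpcat3KOMac mice. Acadm (chr3:153922357-153944632, minus strand), for medium-chain acyl-CoA, was 249, 66.1 and 60.4 CPM in WT and 95.2, 168 and 87.2 CPM in Lpcat3KOMac mice, a range of 4.11-fold against 2.10-fold for Acadl. Both put the libraries in nearly the order of Alb, with WT 1 first and KOMac 2 second. Hadha (chr5:30118304-30155162, minus strand), which carries out the following hydratase and dehydrogenase steps on long chains, spanned less, with 306, 177 and 176 CPM in WT and 183, 250 and 201 CPM in Lpcat3KOMac mice. Hadha shares 75 exonic bases with Garem2 on the opposite strand, which had at most 2 counts in any library.

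Angptl4 (chr17:33773750-33781575, minus strand) was 70.1, 22.4 and 16.8 CPM in WT and 29.2, 48.1 and 25.9 CPM in Lpcat3KOMac mice. It had the same 2 libraries at the top and a 4.18-fold range, second to Ppara. Pdk4 (chr6:5483351-5496309, minus strand) was 9.53, 7.53 and 5.75 CPM in WT and 10.7, 9.84 and 9.67 CPM in Lpcat3KOMac mice. Every Lpcat3KOMac mouse was above every WT mouse, the nearest pair being KOMac 3 and WT 1, which differed little (455 and 619 counts in libraries of different depth). Pdk4 was the only member without overlap, while 2.29% of all genes tested had every Lpcat3KOMac mouse above every WT mouse, 5.2% had every one below, and 7.49% thus did not overlap in either direction.

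No member passed the test between genotypes. All 10 passed the filter on low counts. In edgeR's quasi-likelihood test over 16134 genes, 0 of 10 members had a Benjamini-Hochberg adjusted p under 0.05, as did 0% of all genes, and 0 of 10 had an unadjusted p under 0.05, against 2.64% of all genes. Lpcat3, the deleted gene, was not called in that edgeR test either. DESeq2 called 12 genes (0.0744%) at an adjusted p under 0.05, Lpcat3 among them, and no member. The median log2 fold change of the members was -0.05, beside -0.04 over all genes tested. Pdk4 had the lowest unadjusted p of the 10 (log2 fold change 0.40, SE 0.21, unadjusted p = 0.10 and adjusted p = 1.00 in edgeR, exact two-sided permutation p = 0.1, the smallest that 3 against 3 mice allow). Single markers of several other cell types also separated the genotypes, as 7.49% of all genes tested did in either direction. How these small counts compare with that share was not tested. Every Lpcat3KOMac mouse was above every WT mouse for 2 of 6 monocyte and recruited macrophage markers, Gpnmb and Spp1, and that list summed to 108 to 465 CPM in WT and 442 to 501 CPM in Lpcat3KOMac mice. The same held for 1 of 4 neutrophil markers, S100a8 (0.719 to 0.875 CPM in WT and 0.947 to 2.19 CPM in Lpcat3KOMac mice), although that list overlapped at 80.3 to 157 and 78.7 to 141 CPM, and for 1 of 5 lymphocyte markers, Klrb1c, with list sums of 3.09 to 4.81 and 4.12 to 4.78 CPM. Every Lpcat3KOMac mouse was below every WT mouse for 1 of 6 Kupffer cell markers, Clec4f (log2 fold change -0.44, unadjusted p = 0.042 in edgeR), and the median log2 fold change of that list was -0.25. For the sinusoidal endothelial and stellate cell lists no marker separated the genotypes. Their median log2 fold changes were 0.61 (from -0.24 to 0.86) and 0.36 (from 0.26 to 0.44). The median was 0.49 (from 0.36 to 1.81) for the monocyte and recruited macrophage list. It was 0.90 (from -0.17 to 1.01) for the neutrophil and 0.12 (from -0.14 to 0.74) for the lymphocyte list. At an unadjusted p under 0.05 in edgeR, 1 of 6 sinusoidal endothelial and 0 of 5 stellate cell markers were higher, as were 1.07% of all genes. The same count was 1 of 6 for monocyte and recruited macrophage, 1 of 4 for neutrophil and 0 of 5 for lymphocyte markers. The part of any of these cell types in the level of Pdk4 was not tested.

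The precision of these comparisons differed between members. The 95% interval of the log2 fold change ran from -0.22 to 0.75 for Pparg, from -0.70 to 0.58 for Hadha and from -0.11 to 0.92 for Pdk4, which are the narrowest after Ppard. It ran from -1.22 to 1.19 for Cpt2 and from -1.60 to 1.43 for Angptl4, and was wider for Acadm and Ppara. A doubling or a halving of these genes was thus not excluded. These wide intervals belonged to the genes with the widest range between mice of 1 genotype.

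The level of each member was then set against Alb, as Pearson's r of log2 CPM over the 6 libraries, with an r of at least 0.8 taken as following. The 6 libraries share preparation and scaling, so these are descriptions. Of the 10 members, 7 followed Alb (Ppara, Pparg, Cpt2, Acadl, Acadm, Hadha and Angptl4), and 17.3% of all genes tested did. WT 1 and KOMac 2 were the 2 highest libraries for 7 members, those named but with Cpt1a in place of Pparg, and for 21.8% of all genes. Of the markers, 5 of 5 hepatocyte genes followed Alb, by definition for Alb itself, and 0 of 6 Kupffer cell, 0 of 6 monocyte and recruited macrophage, 0 of 6 sinusoidal endothelial, 0 of 5 stellate cell, 0 of 5 lymphocyte and 0 of 4 neutrophil genes did. WT 1 and KOMac 2 were still the 2 highest libraries for 4 of 5 stellate cell genes, and for 0 genes of the other non-hepatocyte lists. The median slope of the stellate cell genes was 0.39 log2 units per log2 unit of Alb (from 0.18 to 0.55).

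Ppara followed Alb most steeply of the members: its slope was 1.12 log2 units per log2 unit of Alb (r = 0.93, Spearman's rho = 0.89), close to the slopes of the 5 hepatocyte markers, 0.98 to 1.04. Acadm (slope 0.55, r = 0.98, rho = 0.89), Angptl4 (slope 0.51, r = 0.96, rho = 0.89) and Cpt2 (slope 0.41, r = 0.97, rho = 0.94) followed it closely but less steeply. Acadl (slope 0.30, r = 0.96, rho = 0.94) and Hadha (slope 0.22, r = 0.94, rho = 0.94) were shallower still. The enzymes and Angptl4 thus ranked the libraries much like Alb while spanning fewer folds.

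Pparg stood just inside the limit, with a slope of 0.17 (r = 0.81, rho = 0.83), and Cpt1a just outside it, with a slope of 0.23 (r = 0.79, rho = 0.66). Pdk4 had r = 0.67 (rho = 0.43), and Ppard ran the other way with r = -0.68 (rho = -0.54) and a slope of -0.06. With the mean of the 5 hepatocyte transcripts in place of Alb, Cpt1a was inside the limit and Pparg outside it. Ppara, Cpt2, Acadl, Acadm, Hadha and Angptl4 had r of at least 0.9.

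Without WT 1 and KOMac 2, the libraries farthest from the median of Alb, 4 libraries remained, in which genotype and Alb are not separate because both WT mice had less Alb than both Lpcat3KOMac mice. There r was 0.96 for Acadm, 0.92 for Acadl, 0.83 for Cpt2, 0.81 for Angptl4 and 0.93 for Pparg, but 0.73 for Ppara and 0.78 for Hadha, which fell outside the limit. Cpt1a no longer moved with Alb (r = -0.04), Ppard changed sign (r = 0.80), and Pdk4 rose to r = 0.88. The relation of Ppard with Alb therefore rested on those 2 libraries. That of Cpt1a depended on other libraries as well. Among the 4 that remained, WT 2 had the most Cpt1a and the least Alb. With 1 library left out, Cpt1a met the limit without WT 2 and without KOMac 1.

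**Figure D2:**
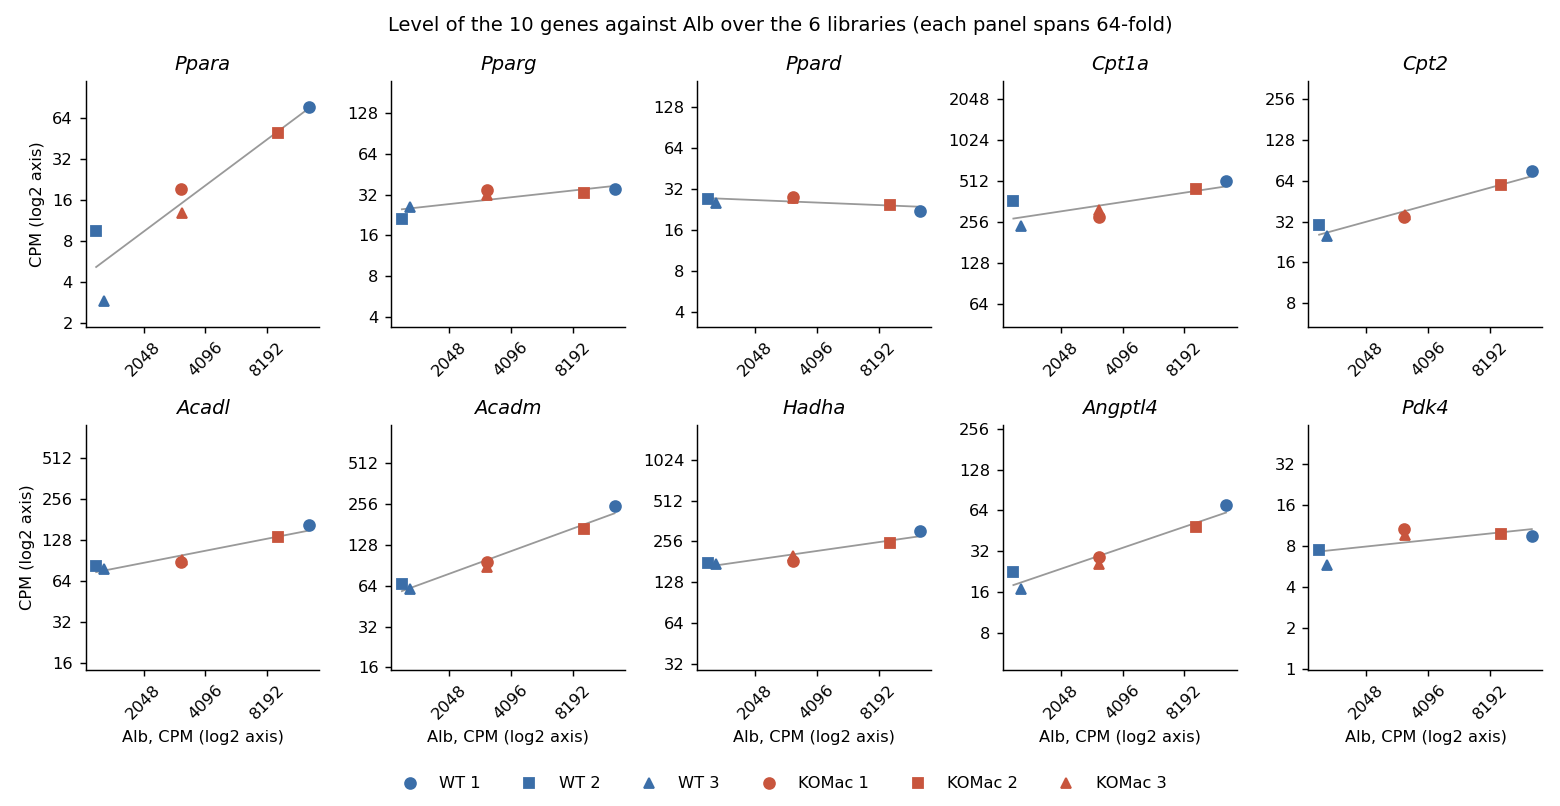
CPM of each of the 10 genes (vertical, log2 axis, every panel spanning the same number of doublings) against CPM of Alb (horizontal, log2 axis) in the 6 libraries, WT in blue and Lpcat3KOMac (KOMac) in red, with a least-squares line on the log2 values. Ppara rises as steeply as Alb itself (slope 1.12), Acadm, Angptl4 and Cpt2 rise at 0.41 to 0.55, and Ppard is nearly flat (slope -0.06).

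A straight line of CPM on the CPM of Alb gives the level that it would reach in a library without Alb, as a description. For Ppara this was -2.16 CPM (SE 2.64), within its error of 0. For Acadm it was 43.0 CPM (SE 6.14), 17.3% of the level in WT 1, for Angptl4 14.2 CPM (20.3%) and for Cpt2 22.5 CPM (30.0%). It was 42.1% of the WT 1 level for Acadl, 51.1% for Cpt1a, 52.4% for Hadha, 74.2% for Pparg, 82.9% for Pdk4 and 125% for Ppard. The line for Ppara thus went through the origin within its error, whereas those of the other 9 genes started above it. The lines used all libraries and were not refitted without WT 1 and KOMac 2, which had the most Alb. No library lacked Alb, so each of these levels is an extrapolation.

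As a ratio to Alb, Ppara was 2.19 to 7.86 CPM per 1000 CPM of Alb, a 3.59-fold range, against 27.0-fold for its level. Acadm per Alb ranged over 3.04-fold and Angptl4 per Alb over 3.60-fold, whereas Ppard per Alb ranged over 13.1-fold, more than its level did. The lowest ratio of Ppara to Alb was in WT 3 and the highest in WT 2, so the 2 WT libraries with the least Alb were at its ends.

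The genotype comparison was repeated with hepatocyte signal, taken as the average of Alb, Apoa1, Ahsg, Fgb and Apoh on the log2 scale, as a second term in the model. That term is a straight line on the log2 scale, and whether this shape holds for each gene was not tested. The error of Acadm fell from 0.64 to 0.07 and that of Cpt2 from 0.48 to 0.09 on the log2 scale, while that of Ppara fell from 1.24 to 0.36. Cpt1a, Cpt2, Acadl, Acadm, Hadha and Angptl4 had a negative log2 fold change, from -0.21 for Cpt1a to -0.13 for Cpt2, and Pparg (0.21), Ppard (0.15), Pdk4 (0.35) and Ppara (0.12, against -0.15 without the covariate) a positive one. The sign of Ppara depended on the library left out: it was -0.43 without WT 1, -0.12 without WT 3 and 0.57 without WT 2 (unadjusted p = 0.018, adjusted p = 0.67 in edgeR), and it was -0.08 with Alb alone as the covariate. The other 9 members kept their sign in these fits. In this edgeR fit 0 of 10 members had an unadjusted p under 0.05, against 8.97% of all genes, and the lowest unadjusted p values were those of Pdk4 (0.060, adjusted p = 0.57) and Acadm (0.062, adjusted p = 0.57). With Alb alone as the covariate the count was 3, Acadl, Acadm and Hadha, each lower, against 9.01% of all genes. It was also 3 without KOMac 2 (Acadl and Acadm lower and Pdk4 higher, against 6.92% of all genes), 2 without WT 2 (Ppara and Pdk4 higher, against 7.32%), 1 without WT 1 (Acadl lower, against 4.74%) and 0 without WT 3, KOMac 1 or KOMac 3, and no member was called after adjustment in any of these fits. The 95% interval of Acadm, from -0.34 to 0.01, excludes a doubling or a halving, and that of Ppara, from -0.78 to 1.01, does not exclude a doubling.

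**Figure D3:**
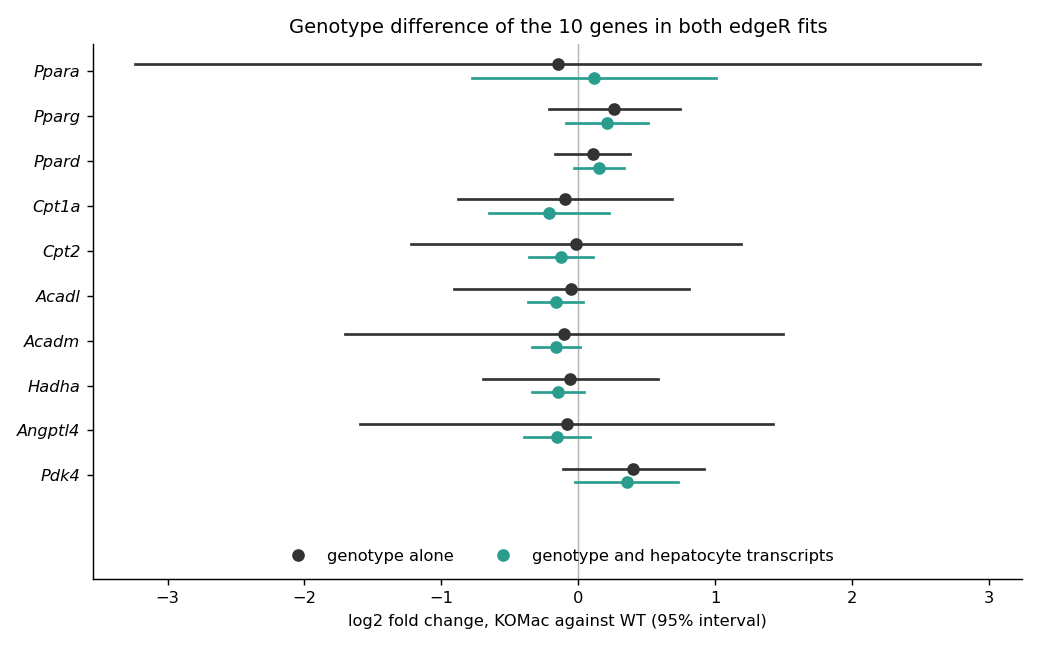
Log2 fold change of Lpcat3KOMac (KOMac) against WT for the 10 genes, as points with 95% intervals, from edgeR with genotype alone (dark) and with hepatocyte signal, the average of 5 transcripts on the log2 scale, as a second term (green). All intervals include 0, and those of Acadm, Angptl4, Cpt2 and Ppara shrink most with the covariate.

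Leaving out WT 1 turned the direction of 7 members. Without it, edgeR's log2 fold change was 2.14 for Ppara (unadjusted p = 0.042), 0.49 for Pparg (0.0079), 0.88 for Acadm (0.035), 0.81 for Angptl4 (0.046) and 0.60 for Pdk4 (0.018), 5 of 10 members at an unadjusted p under 0.05 against 12.3% of all genes, with 0 called after adjustment (adjusted p 0.29 to 0.40 for these 5). Alb itself was 2.04 higher in the same fit (unadjusted p = 0.015), since the remaining WT mice were the 2 with the least Alb. Without WT 1 and KOMac 2 together, Pparg (0.49, unadjusted p = 0.015), Cpt2 (0.34), Acadm (0.53), Angptl4 (0.49) and Pdk4 (0.62) were under 0.05 against 11.0% of all genes, and Alb was 1.31 higher. With scaling to total counts, Pdk4 was the single member under 0.05 (log2 fold change 0.51, unadjusted p = 0.032 in edgeR), against 1.97% of all genes. With the hepatocyte covariate and without WT 1, Ppara was -0.43, Acadm -0.33 and Angptl4 -0.35, whereas Pparg (0.55) and Pdk4 (0.57) remained positive. In those 5 libraries both WT mice had less Alb than every Lpcat3KOMac mouse.

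The wider pathway was read from 7 lists with 103 genes in all, of which 102 passed the filter on low counts (Ucp3 did not). None was called at an adjusted p under 0.05 in edgeR's quasi-likelihood test, 1 was higher and 0 were lower at an unadjusted p under 0.05 (1.07% and 1.57% of all genes), and the median log2 fold change was -0.05. These counts rested on WT 1: without it, 36 of 102 were higher and 0 lower at an unadjusted p under 0.05, against 12.3% of all genes in either direction, with Alb also higher as given above. Without WT 1 and KOMac 2 together, 43 of 101 were higher and 1 lower, against 11.0%. None was called after adjustment in either fit. Of the 102, 63 (61.8%) followed Alb. The share differed between steps of the pathway, from 18 of 18 mitochondrial genes to 3 of 15 cofactors, beside 17.3% of all genes tested.

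Of the 18 mitochondrial beta-oxidation genes, 18 followed Alb, with a median slope of 0.44 (from 0.13 to 0.77), and in all 18 WT 1 and KOMac 2 were the 2 highest libraries. Acaa2, the thiolase of the final step and the most abundant of them per length, was 431, 88.1 and 73.8 CPM in WT and 132, 257 and 110 CPM in Lpcat3KOMac mice. Etfa, Etfb and Acad9, which pass on electrons from the dehydrogenases or assist complex I assembly, had slopes of 0.43, 0.24 and 0.13, and Eci2, an enoyl-CoA isomerase, had 0.36. Acadl, Acadm and Hadha lay inside the range of the list. The mitochondrial genes thus moved together from library to library, with log2 fold changes between genotypes of -0.25 to -0.01 and 0 of 18 at an unadjusted p under 0.05. Without WT 1, 7 of 18 were higher at that p, and 11 of 18 without WT 1 and KOMac 2 together.

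With the hepatocyte covariate all 18 mitochondrial genes had a negative log2 fold change (median -0.20, from -0.33 to -0.04), and 9 of 18 were lower at an unadjusted p under 0.05, against 5.19% of all genes and 7.11% of the 2797 genes that followed Alb. These 9 were Acadvl, Acads, Acad9, Acaa2, Eci1, Eci2, Etfa, Etfb and Etfdh, and none had an adjusted p under 0.05 in edgeR. The count was 0 without KOMac 1 and 0 without KOMac 3, 6 without WT 2, 7 without WT 1, 8 without WT 3 and 11 without KOMac 2, and it was 15 with Alb alone as the covariate. The median stayed between -0.34 and -0.17 under these settings. The covariate is a straight line on the log2 scale, and its fit to these genes was not tested. WT mice held both the highest and the lowest Alb, so a curved relation to Alb and a genotype difference cannot be told apart in this fit.

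Of the 15 peroxisomal beta-oxidation genes, 12 followed Alb, with a median slope of 0.69. None had an unadjusted p under 0.05 between genotypes, against 9 of 15, each higher, without WT 1. Ehhadh, the bifunctional enzyme, had a slope of 0.86, and Acaa1b, a thiolase named after its values were seen, had 1.07. Scp2, the most abundant per length, was 2663, 460 and 410 CPM in WT and 790, 1352 and 664 CPM in Lpcat3KOMac mice. Hsd17b4 and Acaa1a were shallower (0.18 and 0.15). Acaa1a and Acaa1b are near-identical copies, so reads may have been split between them.

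Of the 6 ketone body enzymes, 5 followed Alb. Bdh2 had a slope of 0.58. Oxct1, which uses ketone bodies and is typically absent from hepatocytes, did not follow Alb (145, 157 and 175 CPM in WT, 165, 181 and 160 CPM in Lpcat3KOMac mice). Its slope on Alb, -0.02, was the lowest of the list.

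The carnitine shuttle and fatty acid entry list was mixed, with 6 of 16 genes following Alb. Cd36, the fatty acid translocase and the most abundant per length, was 742, 535 and 753 CPM in WT and 821, 767 and 742 CPM in Lpcat3KOMac mice and did not follow Alb (r = 0.48). Nor did Acsl5, an acyl-CoA synthetase (r = 0.37, log2 fold change -0.23, unadjusted p = 0.11). Acsl3, a synthetase of the endoplasmic reticulum and lipid droplets, was 13.0, 10.7 and 10.3 CPM in WT and 14.7, 20.4 and 21.4 CPM in Lpcat3KOMac mice, without overlap. It was the pathway gene with an unadjusted p under 0.05 (log2 fold change 0.73, SE 0.19, unadjusted p = 0.0084, adjusted p = 1.00 in edgeR).

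Of 31 tested PPAR target genes, 18 followed Alb and 1 ran against it, with a median slope of 0.34. Fabp1, the liver fatty acid binding protein and the most abundant per length, was 1313, 115 and 67.8 CPM in WT and 226, 647 and 233 CPM in Lpcat3KOMac mice, with a slope of 1.09. Pltp, a phospholipid transfer protein, was 1774, 2453 and 2100 CPM in WT and 1434, 1363 and 2029 CPM in Lpcat3KOMac mice and did not follow Alb (r = -0.68). Fabp4, a binding protein of adipocytes and macrophages and a Pparg target, was 24.0, 6.93 and 22.3 CPM in WT and 43.5, 31.8 and 21.7 CPM in Lpcat3KOMac mice, with overlap (log2 fold change 0.86, unadjusted p = 0.15). No target gene had an unadjusted p under 0.05, but 17 of 31 did, each higher, without WT 1. Without WT 1 and KOMac 2 together, 17 of 30 were higher and 1 was lower.

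**Figure D4:**
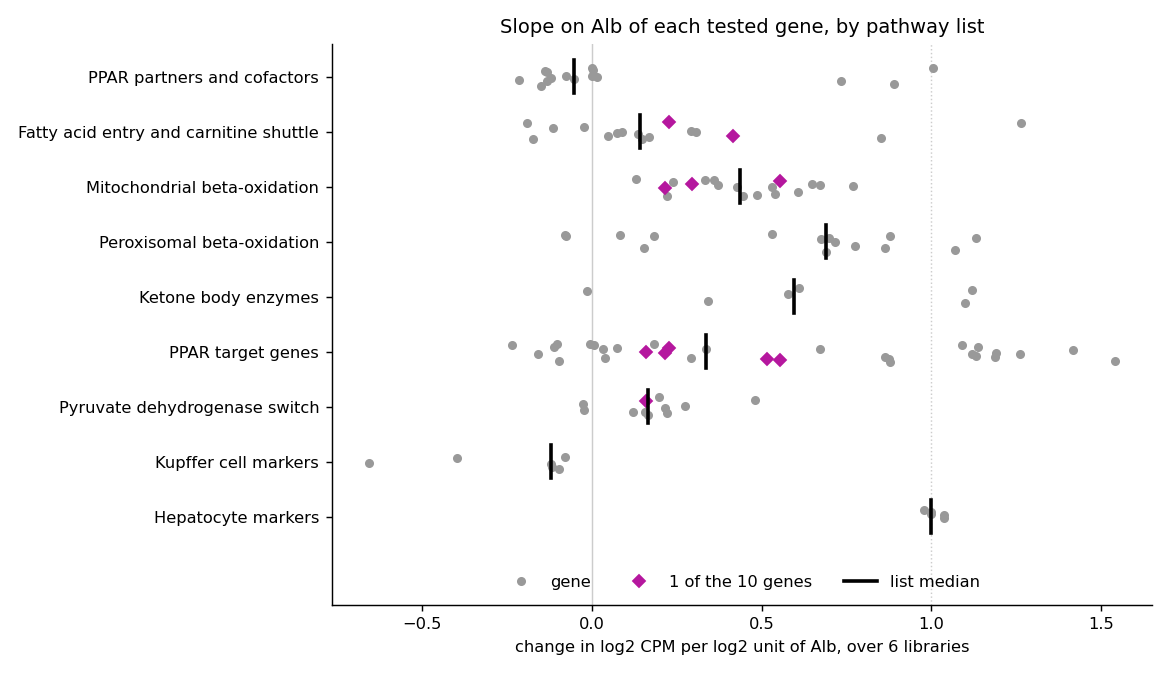
Slope of log2 CPM on log2 CPM of Alb over the 6 libraries (horizontal; 1 means in proportion to Alb) for each tested gene of the 7 pathway lists and of the Kupffer cell and hepatocyte markers; diamonds are members and bars are list medians. Hepatocyte markers lie at 0.98 to 1.04, all mitochondrial genes at 0.13 to 0.77, and the medians of the cofactors (-0.05) and Kupffer cell markers (-0.12) lie below 0.

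Of the 15 PPAR partners and cofactors, 3 followed Alb (Rxrg, Ppargc1a and Lpin1), against 17.3% of all genes tested. A low share was thus not particular to this list. Another 4 ran against Alb with r of -0.8 or lower (among them Nrip1, Crebbp and Ep300), as 15.7% of all genes did. The median slope of the list was -0.05. How these small counts compare with the shares of all genes was not tested. Rxra, the most abundant heterodimer partner per length, was 807, 904 and 629 CPM in WT and 635, 733 and 710 CPM in Lpcat3KOMac mice (r = 0.10, log2 fold change -0.17, unadjusted p = 0.31). Rxrb (r = 0.03) and Ncoa1 (r = 0.03) did not follow Alb either. In the list of the pyruvate dehydrogenase switch, 8 of 11 genes followed Alb, with a median slope of 0.16: Pdhb and Dld, subunits of the complex, had r of 0.95 and 0.93 and Pdk1 of 0.98, while Pdk3 (r = -0.28) and Pdk4 did not.

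Lpin1, a phosphatidate phosphatase that also acts with Ppara as a cofactor, and Acsl3 were the pathway genes called under any setting, and Lpin1 is named for that after its values were seen. Lpin1 was 192, 25.6 and 25.9 CPM in WT and 37.8, 68.6 and 29.7 CPM in Lpcat3KOMac mice, with WT 1 far above all others. With genotype alone its log2 fold change was -0.84 (SE 0.91, unadjusted p = 0.40 in edgeR), which turned to 0.82 without WT 1 (unadjusted p = 0.075) and to 0.40 without WT 1 and KOMac 2 (unadjusted p = 0.038, adjusted p = 0.40). With the hepatocyte covariate it was -0.70 (SE 0.10, unadjusted p = 0.00055, adjusted p = 0.50 in edgeR; adjusted p = 9.8e-05 in DESeq2), and without WT 1 in the same edgeR fit it was -0.60 (SE 0.25, unadjusted p = 0.061, adjusted p = 0.91). Acsl3 had 0.69 in DESeq2 with the covariate (adjusted p = 0.034). DESeq2 with the covariate called 158 genes in all (0.979%), and no member.

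The genes whose level was most like that of each receptor over the 6 libraries differed. For Ppara they were A1cf (r = 0.999), Gm35570 (0.998) and Acot12 (0.997), and 2585 tested genes had r of at least 0.8 with it. For Pparg they were Arhgef10l (0.985), Mipol1 (0.984) and Plec (0.983), of 1113 genes, and for Ppard Cpeb4 (0.994), Pabpc4 (0.993) and Bicd2 (0.985), of 1205 genes. With 6 libraries and 16134 genes, such values are a description of likeness in these libraries.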

How the data were processed

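The study's RNA sequencing covered F4/80+ liver cells of 3 WT and 3 Lpcat3KOMac mice, grouped by their labels. The deposited files hold raw counts per gene, which the authors made, per the submitters' processing notes, with Trimmomatic 0.36, STAR 2.5.2b and featureCounts of Subread 1.5.2 on GRCm38; the strand setting is not given in the sources used here, and the study states no test for these data. Symbols were matched to 48970 of 49315 gene identifiers. From the counts, edgeR 4.0.16 (R 4.3.3) gave TMM-scaled CPM, RPKM over the exon lengths in the files, and the quasi-likelihood test (robust, genes kept by filterByExpr at a minimum count of 10, Benjamini-Hochberg over 16134 genes, called at an adjusted p under 0.05), with genotype alone as the main design. Log2 CPM used a prior count of 2. The 10 members and all gene lists were chosen with earlier results of these data known. Beyond the members, Lpcat3, Lyz2 and Alb, the genes named were, in each pathway list, the 3 with the smallest unadjusted p and the 2 with the highest level per length, and the 3 most like each PPAR; genes that make up a small count were named after their values were seen. Alternatives were other scalings and filters, DESeq2 1.42.0, limma-voom 3.58.1, a replicate block, a hepatocyte covariate and each mouse left out. Model code was tested on simulated data. Intervals cover 95%. No 2 libraries agreed within counting noise (chi-square per degree of freedom of at least 26.6). Some genes that this rule would name are not reported here.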

Additional observations from a re-analysis of the deposited data

How the results depend on the processing

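No member was called under any setting, and the number that followed Alb stayed at 6 to 8 with each mouse left out, other measures, scalings or thresholds. The genes behind that number changed, and only Cpt2, Acadl, Acadm and Angptl4 followed in every setting. Without WT 1 and KOMac 2 together, the 7 that followed included Ppard and Pdk4 and lacked Ppara and Hadha. The number of genes called was 0 in the edgeR fits, apart from 1 (Itgax, a member of no list here, named after its values were seen) in the fit with the hepatocyte covariate and without WT 3, 12 in DESeq2 and 158 in DESeq2 with the hepatocyte covariate. The last of these settings was added once the data had been seen, as were edgeR's newer quasi-likelihood method, Alb alone as covariate and the covariate with each mouse left out. Small negative log2 fold changes turned positive under several settings, and the cause was not tested. With scaling to total counts, which moved the median over all genes from -0.04 to 0.06, they were 0.013 (Ppara), 0.014 (Cpt1a), 0.11 (Cpt2), 0.065 (Acadl), 0.034 (Acadm), 0.053 (Hadha), 0.049 (Angptl4) and 0.15 (Alb), and 1 member, Pdk4 (0.51, unadjusted p = 0.032 in edgeR), was under 0.05, against 1.97% of all genes. With limma-voom they were 0.62 (Ppara), 0.096 (Cpt2), 0.0080 (Acadl), 0.16 (Acadm), 0.11 (Angptl4) and 0.72 (Alb). Alb was 0.0058 with 10 counts required in every library. With the hepatocyte covariate Ppara was 0.12 and Alb 0.16 in edgeR, and 0.12 and 0.16 in DESeq2. In that edgeR fit Ppara turned to -0.077 with Alb alone, and with each mouse left out it ran from -0.43 (without WT 1) to 0.57 (without WT 2), with -0.12 without WT 3. Without WT 1 and KOMac 2 together, Ppara was 1.38, Cpt2 0.34, Acadl 0.16, Acadm 0.53, Hadha 0.12, Angptl4 0.49 and Alb 1.31, and 5 members had an unadjusted p under 0.05.

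Over the 6 fits without 1 mouse, the log2 fold change ran from -0.92 to 2.14 for Ppara, -0.33 to 0.20 for Cpt1a, -0.31 to 0.64 for Cpt2, -0.27 to 0.38 for Acadl, -0.46 to 0.88 for Acadm, -0.19 to 0.26 for Hadha, -0.43 to 0.81 for Angptl4 and -0.74 to 2.04 for Alb, the highest value of each being that without WT 1. The median of the members ran from -0.29 to 0.54 and the number with an unadjusted p under 0.05 from 0 to 5. Pparg (0.11 to 0.49), Ppard (0.03 to 0.18) and Pdk4 (0.24 to 0.60) stayed positive.

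Whether the replicate numbers pair the mice is not known from the labels. Deviations of same-numbered mice from their genotype mean correlated at -0.30, -0.60 and 0.36, and those of WT 1 and KOMac 2 at 0.67, which cannot settle it. With the number as a replicate block, Ppara was 1.04, Cpt2 0.13, Acadl 0.015, Acadm 0.19, Angptl4 0.18 and Alb 0.84, and the block called 0 genes, as without it.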
